A study of Rattus norvegicus with 16 samples.

Results

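Cyclins are the regulatory subunits of the cyclin-dependent kinases (CDKs), and 10 genes of this machinery are described here across islets that did or did not receive the transcription factor Nkx6.1. The genes were chosen by symbol: the D-type cyclins Ccnd1, Ccnd2 and Ccnd3, the cyclins Ccne1, Ccna2, Ccnb1 and Ccnf, and the kinases Cdk1, Cdk2 and Cdk4. All 10 symbols had at least 1 probe set on the array, 14 of the 31042 probe sets in all, and they are 10 of the 14217 genes tested. Ccnd1 had 3 probe sets, Ccnb1 and Cdk2 had 2 each and the other genes had 1.

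RNA came from primary pancreatic islets of male Wistar rats, 8 weeks old, and was read on 1-colour Affymetrix arrays. Islets received an adenovirus carrying Nkx6.1 (AdNkx6.1, n = 5 arrays), a control adenovirus for the bacterial enzyme β-galactosidase (Adβgal, n = 6) or no virus (untreated, n = 5). Both viruses were used at about 2e+09 particles per ml for 18 h, islets of all groups were cultured with 8 mM glucose and 10% serum, and collection was at 48 h. The labels give no promoter for either virus and do not say which islet cells took it up, and each array is RNA of whole islets with all their cell types.

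In background terms, D-type cyclins bind Cdk4 and its close relative Cdk6 early in G1 and start the phosphorylation of the retinoblastoma protein Rb1, which holds back the E2F transcription factors. Cyclin E with Cdk2 completes that step and drives entry into S phase, cyclin A2 acts with Cdk2 and Cdk1 through S phase and G2, and cyclin B1 with Cdk1 triggers mitosis. Cyclin F is an unusual member that is not known to activate a CDK and instead is the substrate-binding part of a ubiquitin ligase. Adult rodent beta cells divide rarely, and Ccnd2 and Cdk4 are known from mouse knockouts to be needed for their growth after birth.

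Values are log2 of the intensity, the brightness of a probe set, and a change of 1 on that scale is a doubling. A level of 1 gene cannot be set against that of another, because probe sets differ in brightness for the same amount of RNA. A gene was called changed where limma's adjusted p (Benjamini-Hochberg over the 14217 genes) was under 0.05. In whole islets, fewer cells of a type and less RNA per cell cannot be told apart.

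The tissue label held against its markers. The beta cell genes Ins1 and Ins2 averaged 14.69 and 14.76 with AdNkx6.1, 14.72 and 14.76 with Adβgal, and 14.75 and 14.82 in untreated islets. The mean of 7 of 10 beta cell markers nevertheless ran from 13.35 to 13.46 with AdNkx6.1 and from 13.55 to 13.66 with Adβgal. In untreated islets it ran from 13.70 to 13.84. Against Adβgal 2 of the 7 were called lower and 0 higher, where 1206 of the 14217 genes were called lower. Those 2 were Pdx1 (-0.31) and Nkx6-1 (-0.46), the gene that the virus carries, so the list mean includes its probe set. The part of the lower beta cell markers in the results below was not tested. Glucagon (Gcg, the hormone of alpha cells) averaged 14.59 with AdNkx6.1, 14.62 with Adβgal and 14.61 in untreated islets, and 3 of 6 markers of the other endocrine cells were called lower with AdNkx6.1 than with Adβgal (2 of 6 without Adβgal replicates 4, 5 and 6). Acinar cell markers, 14 of 16 measured, were uneven: their mean per array ran from 9.03 to 10.42 with AdNkx6.1, from 9.24 to 11.80 with Adβgal and from 9.50 to 10.33 in untreated islets. Adβgal replicates 4, 5 and 6 were the 3 highest of all arrays, at 11.80, 11.21 and 11.29, and many of the results are also given without them. The Nkx6-1 probe set was 1.38-fold lower with AdNkx6.1 than with Adβgal (limma, adjusted p = 0.0023). Whether it lies in the sequence that the virus carries is not given in the sources used here, so it does not check the labels.

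The sequences around the start sites of the genes that differed most between AdNkx6.1 and Adβgal, with Cdk1 as the mitotic kinase, are shown first. They are RefSeq windows of the rat build GRCr8, from 250 bases before to 50 bases after the start site the table uses, written 5′ to 3′ on the strand of the gene. For Ccnd3 that site lies 89.3 kb inside the gene's full span, so its window is not that of the outermost start. Capitals mark exact matches, on either strand, to the E2F-type motifs TTTCCCGC, TTTGGCGC and TTTCGCGC, the motif of late cell cycle genes TTTGAA, the CCAAT box and the Sp1-type motif GGGCGG. No match overlapped another.
Cdk2, chr7:1721829-1722128, minus strand: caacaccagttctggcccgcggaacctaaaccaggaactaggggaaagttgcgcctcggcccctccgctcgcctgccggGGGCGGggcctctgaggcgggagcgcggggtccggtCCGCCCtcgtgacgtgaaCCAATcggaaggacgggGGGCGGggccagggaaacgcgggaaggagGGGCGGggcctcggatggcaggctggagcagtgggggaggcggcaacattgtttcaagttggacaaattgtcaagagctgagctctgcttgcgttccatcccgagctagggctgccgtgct
Ccne1, chr1:99927860-99928159, minus strand: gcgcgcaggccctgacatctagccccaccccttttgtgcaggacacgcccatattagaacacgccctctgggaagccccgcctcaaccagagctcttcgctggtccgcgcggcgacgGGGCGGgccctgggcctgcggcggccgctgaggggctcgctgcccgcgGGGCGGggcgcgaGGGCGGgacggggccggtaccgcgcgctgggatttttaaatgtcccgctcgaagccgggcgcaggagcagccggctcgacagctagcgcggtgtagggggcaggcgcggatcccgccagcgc
Ccnf, chr10:13783620-13783919, minus strand: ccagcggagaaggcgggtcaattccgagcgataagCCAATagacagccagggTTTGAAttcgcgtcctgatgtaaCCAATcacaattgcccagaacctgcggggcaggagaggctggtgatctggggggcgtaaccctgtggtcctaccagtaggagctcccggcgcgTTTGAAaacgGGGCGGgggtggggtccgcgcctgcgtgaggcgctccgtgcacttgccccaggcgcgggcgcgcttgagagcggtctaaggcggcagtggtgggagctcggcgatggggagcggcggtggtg
Ccnd3, chr9:20897826-20898125, minus strand: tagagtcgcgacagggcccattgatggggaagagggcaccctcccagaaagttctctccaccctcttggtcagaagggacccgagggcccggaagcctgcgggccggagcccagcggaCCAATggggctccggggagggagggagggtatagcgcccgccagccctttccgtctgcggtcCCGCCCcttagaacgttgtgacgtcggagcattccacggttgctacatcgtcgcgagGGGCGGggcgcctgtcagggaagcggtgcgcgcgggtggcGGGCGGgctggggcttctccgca
Cdk1, chr20:19265043-19265342, plus strand: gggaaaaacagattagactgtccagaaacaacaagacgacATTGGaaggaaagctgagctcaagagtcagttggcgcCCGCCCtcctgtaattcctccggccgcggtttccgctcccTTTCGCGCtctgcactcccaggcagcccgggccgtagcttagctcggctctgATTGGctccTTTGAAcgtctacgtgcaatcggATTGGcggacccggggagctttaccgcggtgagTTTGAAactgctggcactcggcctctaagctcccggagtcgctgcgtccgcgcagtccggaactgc

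Windows were at hand for 7 of the 10 genes (the 5 above, Ccnb1 and Cdk4); Ccnd1, Ccnd2 and Ccna2 are named only. GGGCGG was in all 7 windows, against 33.1% of the 33469 windows in the table, and CCAAT was in 5 of 7, against 37.5%. TTTGAA stood in the windows of Ccnf and Cdk1, 2 of 7, against 18.3% of all windows. Of the E2F-type motifs only TTTCGCGC occurred, in Cdk1, from 133 to 126 bases before the start; it was in 0.326% of all windows, and any of the 3 in 1.72%. Neither the Nkx6-type motif TTAATTAC nor the cAMP response element TGACGTCA was in any of the 7, against 0.636% and 1.83% of all windows. These are letters in a 300-base window and say nothing about binding.

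The comparison of AdNkx6.1 with Adβgal asks what Nkx6.1 did beyond the virus itself. Of the 10 genes, 6 were called higher and 0 lower. Across all genes 25.0% were called in either direction and 16.6% were called higher. The members' median change was 0.43 on the log2 scale, against 0.02 over all genes. Those that rose were Cdk2, Ccne1, Ccnf, Ccnd3, Cdk1 and Cdk4, from 3.73-fold for Cdk2 to 1.14-fold for Cdk4. In 4 of the 10 genes every AdNkx6.1 array stood above every Adβgal array, against 10.4% of all genes.

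**Figure D1:**
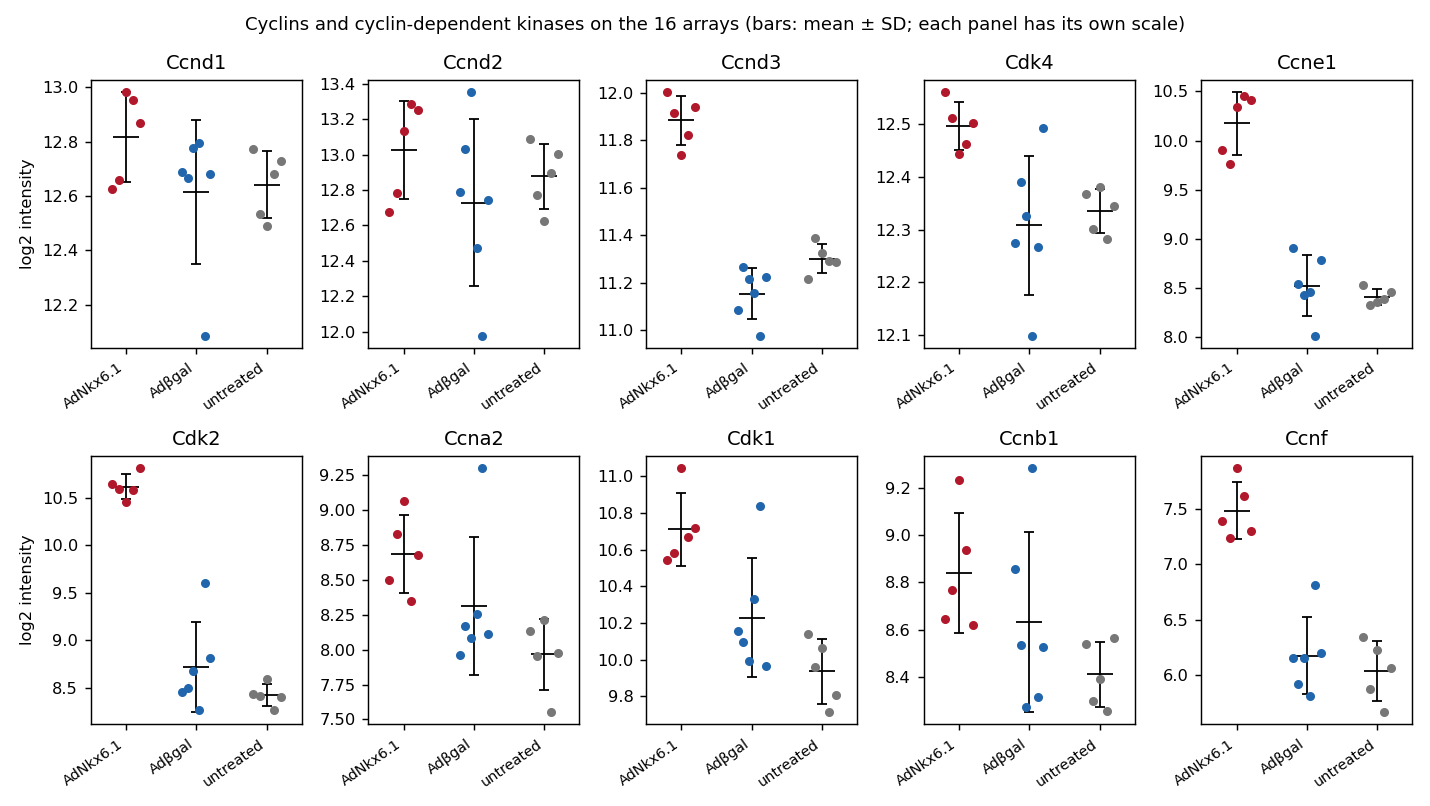
Log2 intensity (vertical axis, own scale in each panel) of the 10 cyclin and CDK genes on each array, with points for arrays and bars for the mean ± SD of AdNkx6.1 (n = 5), Adβgal (n = 6) and untreated (n = 5) islets. The AdNkx6.1 points of Cdk2, Ccne1, Ccnf and Ccnd3 lie apart from both other groups, while those of Ccnd1, Ccnd2 and Ccnb1 overlap the Adβgal points.

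Among the D-type cyclins and their kinase, which act in early G1, Ccnd3 and Cdk4 were called higher, and Ccnd1 and Ccnd2 were not called. Ccnd3 measured 12.00, 11.92, 11.74, 11.82 and 11.94 with AdNkx6.1. With Adβgal its values ran from 10.98 through a median of 11.19 to 11.26, and untreated islets had 11.22, 11.39, 11.32, 11.29 and 11.29. All AdNkx6.1 arrays were above all arrays of both other groups. The change against Adβgal was 0.73 ± 0.07 (SE), or 1.66-fold (limma, adjusted p = 1.1e-06), and it lay between 0.70 and 0.77 in the 27 other settings tried.

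Ccnd1 averaged 12.82 ± 0.17 (SD, n = 5) with AdNkx6.1, 12.62 ± 0.26 (n = 6) with Adβgal and 12.64 ± 0.12 (n = 5) in untreated islets. Its difference between AdNkx6.1 and Adβgal was 0.20, with a 95% interval from -0.05 to 0.45 (limma, adjusted p = 0.24). It was 0.10 without Adβgal replicate 5 (adjusted p = 0.43) and 0.11 without Adβgal replicates 4, 5 and 6 (adjusted p = 0.46). The other probe sets of Ccnd1 gave 0.21 and 0.16, neither called. Ccnd2 averaged 13.03 ± 0.28 (SD, n = 5) with AdNkx6.1, 12.73 ± 0.47 (n = 6) with Adβgal and 12.88 ± 0.18 (n = 5) in untreated islets. The Ccnd2 difference of 0.30 had an interval from -0.12 to 0.71 (limma, adjusted p = 0.30). Without Adβgal replicate 5 it was 0.15 (adjusted p = 0.55), and without Adβgal replicates 4, 5 and 6 it was -0.03 (adjusted p = 0.91). Whether the changes of the 3 D-type cyclins differ from each other was not tested.

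Cdk4, the kinase partner of the D-type cyclins, rose by the smallest amount among the called genes. It ran from 12.44 to 12.56 with AdNkx6.1, from 12.10 to 12.49 with Adβgal and from 12.28 to 12.38 in untreated islets. The AdNkx6.1 and Adβgal arrays overlapped, and the change was 0.19 ± 0.07 (SE), or 1.14-fold (limma, adjusted p = 0.046). This call is fragile: it was lost in 18 of 27 other settings, among them the removal of any 1 AdNkx6.1 array, any 1 untreated array, or Adβgal replicate 1, 3, 4 or 5, with an adjusted p of up to 0.12 over the settings.

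Cyclin E1 and Cdk2, the pair of the G1 to S transition, had the largest changes among the 10 genes. Cdk2 measured 10.64, 10.60, 10.45, 10.58 and 10.81 with AdNkx6.1. With Adβgal it ran from 8.26 through a median of 8.58 to 9.61, and in untreated islets it was 8.43, 8.41, 8.59, 8.26 and 8.40. Adβgal replicate 5 was the highest of its group and still below every AdNkx6.1 array. Against Adβgal the change was 1.90 ± 0.18 (SE), or 3.73-fold (limma, adjusted p = 1.1e-06).

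The second probe set of Cdk2, tested in a fit of all 31042 probe sets, moved the same way. It read 9.76, 9.60, 9.55, 9.67 and 9.82 with AdNkx6.1, from 7.08 through a median of 7.46 to 8.24 with Adβgal, and from 7.06 to 7.48 in untreated islets. Its change against Adβgal was 2.11 ± 0.16 (SE), or 4.31-fold (limma, adjusted p = 2.3e-07). In RefSeq the span of another gene, Pmel, overlaps that of Cdk2 on the opposite strand, and the span of Tspan31 overlaps that of Cdk4, also on the opposite strand.

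Ccne1, which encodes cyclin E1, measured 9.90, 9.76, 10.34, 10.45 and 10.42 with AdNkx6.1. With Adβgal it ran from 8.01 through a median of 8.50 to 8.90, and untreated islets had 8.52, 8.32, 8.35, 8.38 and 8.45. The lowest AdNkx6.1 array exceeded the highest Adβgal array, and here Adβgal replicate 5 was the lowest of its group. The change was 1.66 ± 0.15 (SE), or 3.15-fold (limma, adjusted p = 1.1e-06). Ccne2, the gene of the related cyclin E2 and not one of the 10, rose 1.87-fold in the same comparison (limma, adjusted p = 0.00023).

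**Figure D2:**
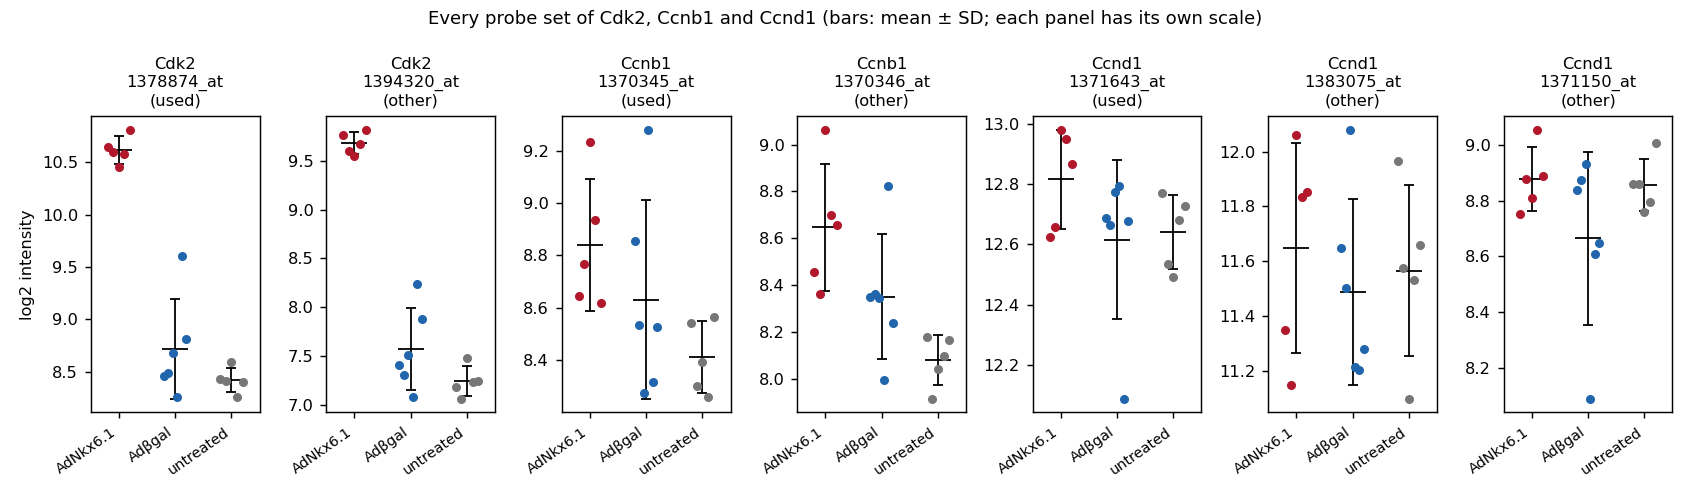
Log2 intensity (vertical axis, own scale in each panel) of every probe set of Cdk2, Ccnb1 and Ccnd1 on each array, with the mean ± SD of AdNkx6.1 (n = 5), Adβgal (n = 6) and untreated (n = 5) islets. Both Cdk2 probe sets separate the AdNkx6.1 arrays from the others, with changes of 1.90 and 2.11 against Adβgal, while the 3 Ccnd1 probe sets do not.

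Cdk1, Ccna2 and Ccnb1, which act in S phase, G2 and mitosis, gave smaller differences against the control virus than Ccne1 and Cdk2. The changes of these genes were not tested against each other. Cdk1, the kinase of mitotic entry, measured 10.54, 10.59, 11.04, 10.67 and 10.72 with AdNkx6.1. With Adβgal it ran from 9.97 through a median of 10.13 to 10.84, and in untreated islets it was 10.14, 9.96, 10.07, 9.72 and 9.81. Adβgal replicate 5 lay within the AdNkx6.1 range and the other 5 Adβgal arrays below it. The change was 0.48 ± 0.14 (SE), or 1.40-fold (limma, adjusted p = 0.022). The Cdk1 call was lost without AdNkx6.1 replicate 3 (adjusted p = 0.062) and in a fit of the 2 virus groups alone (adjusted p = 0.053).

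Ccna2, the gene of cyclin A2, turned on a single array. It measured 8.50, 8.83, 9.06, 8.35 and 8.67 with AdNkx6.1, from 7.96 through a median of 8.14 to 9.30 with Adβgal, and 8.14, 7.96, 8.21, 7.55 and 7.97 in untreated islets. The value of 9.30 was Adβgal replicate 5, above every AdNkx6.1 array, and the other 5 Adβgal arrays were below them all. With that array the change was 0.37 ± 0.21 (SE) and was not called (limma, adjusted p = 0.21). Without it the change was 0.57 (adjusted p = 0.0053), and without Adβgal replicates 4, 5 and 6 it was 0.61 (adjusted p = 0.012).

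Ccnb1, the gene of cyclin B1, was not called. It averaged 8.84 ± 0.25 (SD, n = 5) with AdNkx6.1, 8.63 ± 0.38 (n = 6) with Adβgal and 8.41 ± 0.14 (n = 5) in untreated islets. The difference between the virus groups was 0.21, with a 95% interval from -0.14 to 0.55 (limma, adjusted p = 0.38). It was 0.11 without AdNkx6.1 replicate 3 (adjusted p = 0.68), 0.14 without Adβgal replicate 3 (adjusted p = 0.59) and 0.34 without Adβgal replicate 4 (adjusted p = 0.067). Its second probe set gave 0.30 ± 0.14 (SE) and was not called either (limma, adjusted p = 0.14).

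Ccnf, the gene of cyclin F, rose by over 1 log2 unit. It measured 7.39, 7.24, 7.87, 7.62 and 7.31 with AdNkx6.1. With Adβgal it ran from 5.81 through a median of 6.15 to 6.81, the highest being replicate 5, and untreated islets had 6.34, 5.87, 6.22, 5.66 and 6.06. The AdNkx6.1 arrays were all above the rest. Ccnf was dim in the other groups, with geometric mean intensities of 72.1 with Adβgal and 65.4 in untreated islets. Array medians were 264.8 to 296.2, so its fold is not exact. The change was 1.31 ± 0.17 (SE), or 2.48-fold (limma, adjusted p = 3.3e-05). Over the other settings it ran from 1.02 to 1.44 and was called in all 27, as were Cdk2 (1.81 to 2.08), Ccne1 (1.55 to 1.76) and Ccnd3.

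One array recurs in these values. Among the 6 Adβgal arrays, replicate 5 was the highest for Ccna2, Ccnf, Cdk1 and Cdk2 and the lowest for Ccnd1, Ccnd2, Ccnd3 and Ccne1, which is 4 genes each way of the 10. It also had the highest mean of the endothelial markers of all arrays, 11.28, in a list with 9 of 10 genes measured, and the highest mean of the 11 stellate cell and fibroblast markers, 12.03. Its mean of the 13 leukocyte markers, 8.87, was exceeded by Adβgal replicate 6, at 9.22. Endothelial means ran from 9.31 to 10.50 with AdNkx6.1, from 8.54 to 11.28 with Adβgal and from 9.53 to 9.81 in untreated islets. Stellate and fibroblast means ran from 11.69 to 11.82 with AdNkx6.1, from 11.48 to 12.03 with Adβgal and from 11.62 to 11.83 in untreated islets. Leukocyte means ran from 8.16 to 8.72 with AdNkx6.1, from 8.31 to 9.22 with Adβgal and from 8.27 to 8.53 in untreated islets. The part of these cells in the values of that array was not tested. Without replicate 5, the changes of Cdk2 and Cdk1 against Adβgal were 2.08 and 0.60, and without replicates 4, 5 and 6 they were 2.08 and 0.63.

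The comparison of Adβgal with untreated islets takes in the control virus and its handling, and also differences in the cells on the arrays. Acinar markers had a median change of 0.96 in it, and 0.03 without Adβgal replicates 4, 5 and 6. Their part in the values below was not tested. Of the 10 genes, 0 were called by limma, against 7.01% of all genes. At an unadjusted p under 0.05 there was 1, Ccnd3, with a change of -0.15 (limma, adjusted p = 0.19), and the count was 0 in each of the 27 other settings as well. The largest values, none of them called, were Ccna2 at 0.35 (adjusted p = 0.32), Cdk2 at 0.30 (adjusted p = 0.31) and Cdk1 at 0.29 (adjusted p = 0.22), which without Adβgal replicates 4, 5 and 6 were 0.10, 0.12 and 0.14. The arrays of the groups overlapped in all 10 genes, where 6.88% of all genes had no overlap, and the median change was 0.13, against -0.04 over all genes. The intervals were not narrow: that of Ccna2 ran from -0.09 to 0.79 and that of Cdk1 from -0.01 to 0.60.

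AdNkx6.1 was also set against untreated islets, which takes in Nkx6.1, the virus and differences in the cells on the arrays together. This comparison shares the AdNkx6.1 arrays with the first and the untreated arrays with the second, so it is no separate evidence. Here 6 of the 10 genes were called higher and 0 lower, where 30.7% of all genes were called and 16.9% were called higher. With each array centred on its median, the split over all genes was 1849 higher and 2900 lower, against 2404 and 1956 as deposited. In 8 of the 10 genes all AdNkx6.1 arrays stood above all untreated arrays, against 17.4% of all genes, and the exceptions were Ccnd1 and Ccnd2.

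Against untreated islets Cdk2 rose 4.58-fold (2.20 ± 0.18, SE; limma, adjusted p = 3.2e-07), Ccne1 3.41-fold (adjusted p = 6.7e-07) and Ccnf 2.74-fold (adjusted p = 1.5e-05). Ccnd3 rose 1.50-fold (0.58 ± 0.07, SE; limma, adjusted p = 1.4e-05) and Cdk1 1.71-fold (0.77 ± 0.15, SE; adjusted p = 0.001). Ccna2 rose 1.64-fold (0.72 ± 0.22, SE; limma, adjusted p = 0.019), a call that AdNkx6.1 replicate 3 and untreated replicate 4 each decided (adjusted p = 0.052 and 0.057 without them). Cyclin A2 was thus called against untreated islets and not against the control virus, and the difference between Adβgal and untreated islets was itself not called.

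Ccnb1 and Cdk4 lay at the edge in this comparison. The Ccnb1 change was 0.43 ± 0.17 (SE) with limma's adjusted p at 0.066, and its second probe set was called, at 0.57 ± 0.14 (adjusted p = 0.0095 over all probe sets). The Cdk4 value was 0.16 ± 0.07 (SE; adjusted p = 0.088). Both passed the threshold without Adβgal replicate 4, at an adjusted p of 0.017 for Ccnb1 and 0.036 for Cdk4. Ccnd1 at 0.18 and Ccnd2 at 0.15 were not called (limma, adjusted p = 0.31 and 0.63).

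**Figure D3:**
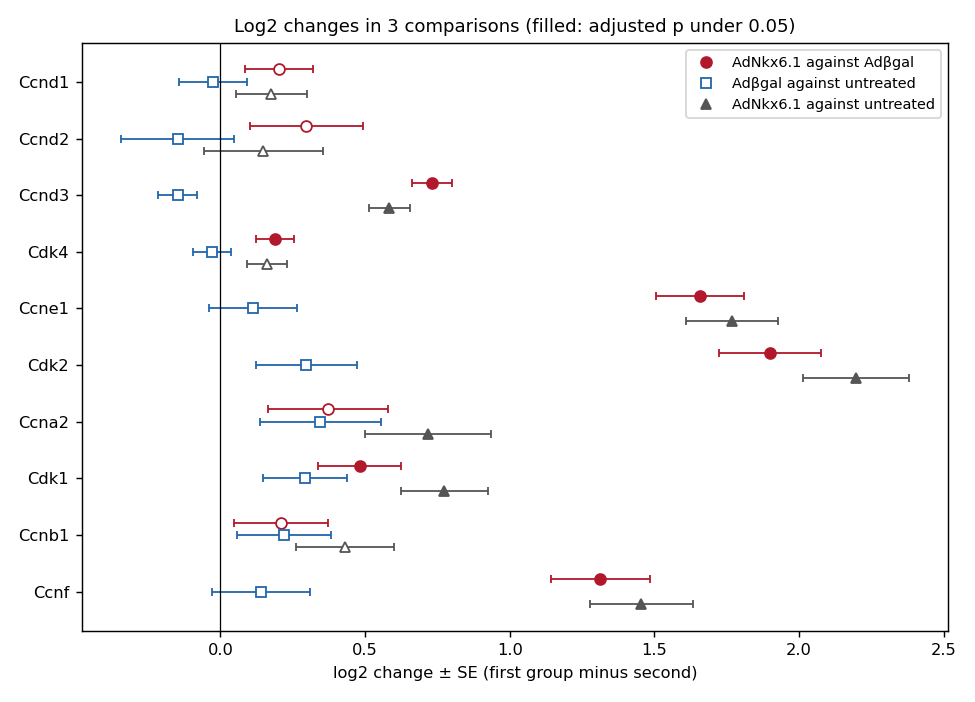
Log2 change (horizontal axis) of the 10 genes in the 3 comparisons, AdNkx6.1 against Adβgal (circles), Adβgal against untreated (squares) and AdNkx6.1 against untreated (triangles), with bars for ± SE of limma; filled points have an adjusted p under 0.05. Cdk2, Ccne1 and Ccnf are over 1 in both comparisons of AdNkx6.1, and no point of Adβgal against untreated is filled.

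Lists of genes around the cyclin-CDK complexes place these values. The other cyclins, 15 of 18 measured, had 1 member called higher and 3 lower with AdNkx6.1 against Adβgal, with a median change of -0.03. Over all genes 25.0% were called in this comparison, 16.6% higher, with a median of 0.02, and the counts of every list are read beside those shares. The riser was Ccne2, and those that fell were Ccnj (-0.26), Ccnl1 (-0.36) and Ccnt2 (-0.36), the last a partner of the transcription kinase Cdk9. Without Adβgal replicates 4, 5 and 6, 2 were called higher and 0 lower: Ccnj was then -0.19, Ccnl1 -0.27 and Ccnt2, about as large as before, -0.34 (limma, adjusted p = 0.16, 0.11 and 0.094). Of 17 measured other CDKs, 3 rose and 2 fell (median -0.03). Cdk7, the kinase that activates other CDKs, rose 1.52-fold (limma, adjusted p = 0.0011), Cdk18 rose by 0.43, and Cdk14 changed by -0.37 and Cdk8, a kinase of the Mediator complex, by -0.22. Without the same 3 Adβgal arrays 2 of these CDKs were called higher and 1 lower. Cdk14 was then about as large as before but not called (-0.36, limma, adjusted p = 0.065), and Cdk8 (-0.15) and Cdk19 (0.13), the third riser at 0.26, were not called either (adjusted p = 0.16 each). The 1 called lower was Cdk13 (-0.48, adjusted p = 0.0016), named after its values were seen.

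Activators and partners of the complexes had 5 of 10 measured genes called higher and 0 lower, with a median of 0.29. Mybl2, a transcription factor of cycling cells, rose 2.03-fold (limma, adjusted p = 4.6e-05). The phosphatases Cdc25a and Cdc25b, which remove the inhibitory phosphate from CDKs, rose 1.57-fold (adjusted p = 0.0011) and 1.56-fold (adjusted p = 5.9e-05), and the CDK-binding subunit Cks2 rose 1.42-fold (adjusted p = 0.004). Against untreated islets 8 of the 10 were called higher, where 16.9% of all genes were.

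Inhibitors of the complexes were called higher as well, 5 of 10 and 0 lower, with a median of 0.20. Cdkn1c, which encodes p57, averaged 9.29 ± 0.19 (SD, n = 5) with AdNkx6.1, 5.73 ± 0.37 (n = 6) with Adβgal and 6.22 ± 0.34 (n = 5) in untreated islets, a rise of 3.56 ± 0.18 (SE) against Adβgal (limma, adjusted p = 1.1e-09). Cdkn1a, which encodes p21, averaged 12.82 ± 0.03 (n = 5) with AdNkx6.1, 11.77 ± 0.11 (n = 6) with Adβgal and 11.47 ± 0.12 (n = 5) in untreated islets, a rise of 1.05 ± 0.07 (SE; limma, adjusted p = 2e-08). Cdkn3, a CDK-associated phosphatase, rose 1.79-fold (adjusted p = 0.0002) and Cdkn2d, an inhibitor of Cdk4, rose 1.34-fold (adjusted p = 0.0046). Genes of the kinases and genes of their inhibitors were thus both called higher in this comparison. Without Adβgal replicates 4, 5 and 6, 5 inhibitors were called higher and 1, Cdkn2c, lower (-0.28, limma, adjusted p = 0.034).

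In the list of Rb and E2F proteins 7 of 15 measured genes were called higher and 0 lower (median 0.12), and without Adβgal replicates 4, 5 and 6 it was 5 and 0. E2f1 and E2f2, activators of S phase genes, rose 1.95-fold (limma, adjusted p = 5.6e-05) and 2.76-fold (adjusted p = 6.1e-05), and the repressors E2f7 and E2f8 rose 2.27-fold (adjusted p = 0.002) and 3.29-fold (adjusted p = 0.00013). Rb1 was not called between the virus groups and was lower with Adβgal than in untreated islets, by -0.42 on the log2 scale (adjusted p = 0.011). That Rb1 call was not made without Adβgal replicates 4, 5 and 6 (-0.29, adjusted p = 0.077). Of the genes for cyclin degradation, 4 of 12 measured rose and 1 fell, with a median of 0.22. Fzr1 and Cdc20, the activators of the anaphase promoting complex, rose 1.59-fold (adjusted p = 3.4e-05) and 1.38-fold (adjusted p = 0.0026), and Fbxo4, which has been linked to cyclin D1 turnover, fell 1.46-fold (adjusted p = 0.0034). Without those 3 Adβgal arrays 5 were called higher and 2 lower.

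Of the cell cycle markers, 11 of 15 measured rose and 0 fell with AdNkx6.1 against Adβgal, with a median of 0.66, and without Adβgal replicates 4, 5 and 6 it was 12 and 0. Cdt1, which licenses replication origins, rose by 2.23 (limma, adjusted p = 1.5e-06), Aurka, a mitotic kinase, by 1.56 (adjusted p = 4.1e-09) and Mcm5, a subunit of the replicative helicase, by 1.54 (adjusted p = 2e-07). Between Adβgal and untreated islets 7.01% of all genes were called in either direction. In this list 5 of 15 were called higher with Adβgal, among them Mcm3 (0.87, adjusted p = 0.028), Mcm6 (0.55, adjusted p = 0.011) and Birc5 (0.57, adjusted p = 0.028). Without Adβgal replicates 4, 5 and 6 the count in this list was 1, Mcm6 (0.44, adjusted p = 0.037). Part of the duct list moved too: 4 of 8 measured, Krt7, Krt8, Krt18 and Muc1, were called higher with AdNkx6.1 than with Adβgal. The others were not called: Krt19 (-0.01), Cftr (-0.57), Spp1 (0.27) and Epcam (0.12). Duct list means ran from 11.30 to 11.56 with AdNkx6.1, from 10.92 to 11.46 with Adβgal and from 11.02 to 11.17 in untreated islets. Their part in the rise of the cyclin and CDK genes was not tested.

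**Figure D4:**
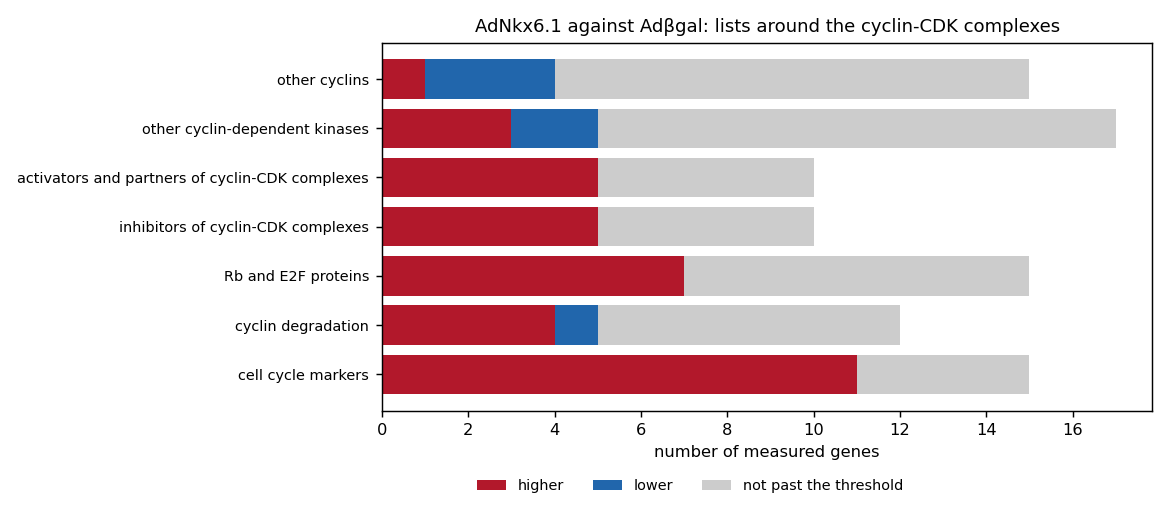
Number of measured genes (horizontal axis) called higher, called lower or not called with AdNkx6.1 against Adβgal (limma, adjusted p under 0.05) in each list around the cyclin-CDK complexes. Cell cycle markers have 11 of 15 called higher, and the other cyclins 1 of 15.

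Likeness between profiles was measured as the root mean square difference of the mean-centred log2 values over the 16 arrays, where 0 is identity. Nearest to Cdk2 were Cldn3 (0.22), Prxl2b (0.23) and Sphk1 (0.23), against 0.99 for the spread of Cdk2 itself, taken the same way around its own mean. Ccne1 had Trim14 (0.19), Gchfr (0.20) and Cenpm (0.21) nearest, against a spread of 0.83. Around Ccnf were Ddias (0.21), Ethe1 (0.22) and Cgnl1 (0.23), against 0.70. Among all genes, that nearest to Ccna2 was Cdk1 (0.18), and nearest to Cdk1 was Dlgap5 (0.13), followed by Mtbp and Ska3 at 0.16 each. Ccnd3 had Sphk2 (0.08), Atg2a (0.09) and Aldh6a1 (0.10) nearest. Within the 10 genes, Ccnd1 and Ccnd2 were each nearest to the other (0.20), a difference as large as the spread of Ccnd1 around its own mean (0.20), while Ccne1 and Cdk2 were both nearer to Ccnf (0.40 and 0.39) than to each other.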

How the data were processed

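The authors deposited 1 table of linear-scale intensity values per probe set, 6.25 to 35765, made with RMA per the submitters' processing notes; the version and the return to a linear scale are not given in the sources used here. Log2 was taken with no pseudocount. Array medians were 264.8 to 296.2, and precision is limited by how many arrays there are. Of 31099 probe sets, 57 controls were left out; 20826 had 1 symbol in the platform annotation, 436 several and 9780 none. Of the gene numbers, 20758 matched the symbol table and 0 symbols changed. Each gene was read from the probe set with the highest mean of all 16 arrays, and 4525 genes had more than 1.

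Limma 3.58.1 in R 4.3.3 fitted the 3 groups together with eBayes, 2-sided, with Benjamini-Hochberg adjustment over 14217 genes. The fit was tested on simulated data, where all groups had the same spread for a gene. For AdNkx6.1 against Adβgal it recovered 20% of changes of 0.25 on the log2 scale and 42% of 0.5. It recovered 86% of changes of 1 and 100% of 2. Python 3.11.15, pandas 2.3.3 and matplotlib 3.10.9 made the tables and figures.

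The 10 genes, the lists and the tests were chosen with earlier results of these data known. Other genes named are, from each list, up to 4 with the smallest p in either comparison with Adβgal, the 3 nearest profiles of each member, and genes of the series title; neighbouring genes were chosen after their values were seen. The labels call the arrays biological replicates without naming animals or cultures, so p-values measure only the spread between these samples. The protocol text speaks of 5 replicates per condition, while the table has 6 Adβgal arrays, all used here. The files give no scan date or other batch. Settings tried were other fits, weights, probe set rules, a pseudocount of 32, other scalings, a filter at log2 6 and leaving out arrays.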

Additional observations from a re-analysis of the deposited data

Results flagged for a closer look

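Dixon's test at 95% was run on each of the 10 genes in each of the 3 groups, 30 groups of arrays in all, and it marked 2, where chance marks about 1 in 20. Both were Adβgal replicate 5. For Ccnd1 that array was far below the others of its group, at 12.09 against 12.66 to 12.80, a gap of 0.816 of the group's range where the limit is 0.625. For Ccna2 it was far above them, at 9.30 against 7.96 to 8.26, a gap of 0.777 of the range.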

How the results depend on the processing

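No change of a member that was called reversed in any setting. Against Adβgal, members called numbered 6, and 4 to 7 over the settings: 4 in a fit of the 2 groups alone or without AdNkx6.1 replicate 3, and 7, with Ccna2, without Adβgal replicates 4, 5 and 6, a setting added after seeing the data. For AdNkx6.1 against untreated the range was 5 to 8 around 6. Over all genes, AdNkx6.1 against Adβgal had 3560 calls, 2580 in a fit of the 2 groups alone and 2783 to 3933 with 1 array left out. With all probe sets tested there were 6196 (55.0% of them higher, against 66.1%). In the fit of the 2 groups alone, limma's adjusted p was 7.6e-05 for Ccnd3 and 7e-05 for Ccne1. Adβgal against untreated had 997 calls, 40.5% of them higher. They became 521 in a fit of the 2 groups alone, 2685 with all probe sets tested (53.0% higher), 1752 with arrays centred on their medians (17.9% higher) and 552 without Adβgal replicates 4, 5 and 6. Leaving out 1 array gave 509 to 1503: 1503 without Adβgal replicate 2, 647 without Adβgal replicate 6, and 620, 532, 526 and 509 without untreated replicates 1, 2, 4 and 5. The causes were not tested. AdNkx6.1 against untreated had 4360 calls, 3558 to 5069 with 1 array left out. Ccnb1 and Cdk4 passed against untreated islets in 4 settings each. Detection calls were not used here, so folds of dim probe sets are not exact.

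Replicate numbers did not pair the AdNkx6.1 and Adβgal arrays: deviations of same-numbered arrays correlated at -0.39 to -0.03, with 0 of 5 over 0.1. Same-numbered arrays were over 0.1 in 2 of 5 pairs of AdNkx6.1 and untreated islets and in 1 of 5 of Adβgal and untreated islets. Among pairs with unlike numbers it was 3 of 20 and 4 of 25. With a replicate block, AdNkx6.1 had 2855 calls over all genes against Adβgal and 3811 against untreated islets, and Adβgal had 393 against untreated islets. Members called under the replicate block were 5 for AdNkx6.1 against Adβgal, 6 for AdNkx6.1 against untreated islets and 0 for Adβgal against untreated islets; the call not made was Cdk1 (adjusted p = 0.086). Adβgal replicate 6 has no partner in that fit.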

Other observations

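Among protein-coding genes that overlap one of the 10 or lie within 1000 bases of it in the RefSeq annotation, 3 were found: Pmel beside Cdk2, Tspan31 beside Cdk4 and Exosc9 beside Ccna2. They were chosen after the values were seen. Pmel, which encodes a protein of pigment granules, overlaps Cdk2 on the opposite strand. It averaged 8.35 ± 0.13 (SD, n = 5) with AdNkx6.1, 6.77 ± 0.25 (n = 6) with Adβgal and 6.77 ± 0.14 (n = 5) in untreated islets, on the log2 scale. The lowest AdNkx6.1 array, 8.12, was above the highest Adβgal array, 7.18. Pmel rose by 1.57 ± 0.11 (SE), or 2.98-fold, with AdNkx6.1 against Adβgal (limma, adjusted p = 5.1e-08), and its change was 1.34 to 1.66 over the settings. Between Adβgal and untreated islets the difference was 0.01.

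Tspan31, a tetraspanin gene that overlaps Cdk4 on the opposite strand, rose 1.24-fold with AdNkx6.1 against Adβgal (0.31 ± 0.06, SE; limma, adjusted p = 0.0019). That is a larger log2 change than the 0.19 of Cdk4, and the difference between them was not tested. Exosc9, an RNA exosome gene that lies apart from Ccna2, was not called in that comparison (-0.08, limma, adjusted p = 0.38) and rose with Adβgal against untreated islets (0.24, adjusted p = 0.027, up to 0.13 over the settings).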
